A study of Mus musculus with 6 samples.

Results

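The Toll-like receptors and their adaptor Myd88 were followed through RNA-seq libraries of mouse brain. The genes were the rows of the deposited expression table that carry the symbols Tlr1, Tlr2, Tlr3, Tlr4, Tlr5, Tlr6, Tlr7, Tlr9, Tlr13 and Myd88, and all 10 were found among the 23057 genes of the table. The libraries came from C57BL/6 mice, 3 mock-irradiated and 3 that had received 10 Gy of X-rays to the head through a collimator with a field 10.08 mm wide, and brains were taken after 30 days from animals perfused with saline. The labels give neither the sex nor the age of the mice, and they call the tissue whole brain. By its title the series is about senescence after radiation and the surroundings of brain tumors, and the comparison asks how normal brain differs 1 month after the exposure.

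Toll-like receptors are membrane proteins that bind molecules of microbes or of damaged cells. Tlr2, with Tlr1 or Tlr6 as its partner, binds bacterial lipopeptides, Tlr4 binds lipopolysaccharide and Tlr5 binds flagellin, all at the cell surface. Tlr3, Tlr7, Tlr9 and Tlr13 sit in endosomes and bind nucleic acids. Myd88 carries the signal of all of these receptors except Tlr3, which uses the adaptor Ticam1, and the signal ends in NF-kB and interferon regulatory factors. In the brain microglia hold most of these receptors, and Tlr3 is also known from astrocytes and neurons.

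Promoters of 4 of the genes tested below are shown because they hold letters that NF-kB, the myeloid factor PU.1 and interferon regulatory factors are known to bind. RefSeq (GRCm38.p6) gave windows of 300 bases, from 250 before to 50 after a transcript start, for 8 of the 10 genes, all but Tlr4 and Tlr7. Those of Tlr2 (chr3:83841559-83841858, minus strand), Tlr3 (chr8:45410331-45410630, minus strand), Tlr13 (chrX:106143025-106143324, plus strand) and Myd88 (chr9:119339969-119340268, minus strand) are printed 5′ to 3′ on the gene's strand, with every match of the 3 motifs in capitals.
Tlr2: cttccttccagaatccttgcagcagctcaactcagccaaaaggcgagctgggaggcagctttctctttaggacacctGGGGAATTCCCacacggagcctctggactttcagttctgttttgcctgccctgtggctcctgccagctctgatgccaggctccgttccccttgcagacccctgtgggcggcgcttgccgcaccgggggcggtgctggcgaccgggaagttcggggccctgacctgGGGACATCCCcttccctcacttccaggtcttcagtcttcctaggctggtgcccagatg
Tlr3: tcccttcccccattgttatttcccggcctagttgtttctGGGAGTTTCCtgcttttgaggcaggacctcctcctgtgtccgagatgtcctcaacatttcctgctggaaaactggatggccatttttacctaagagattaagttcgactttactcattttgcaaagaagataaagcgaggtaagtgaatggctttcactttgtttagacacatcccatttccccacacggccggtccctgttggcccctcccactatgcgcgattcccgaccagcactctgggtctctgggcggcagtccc
Tlr13: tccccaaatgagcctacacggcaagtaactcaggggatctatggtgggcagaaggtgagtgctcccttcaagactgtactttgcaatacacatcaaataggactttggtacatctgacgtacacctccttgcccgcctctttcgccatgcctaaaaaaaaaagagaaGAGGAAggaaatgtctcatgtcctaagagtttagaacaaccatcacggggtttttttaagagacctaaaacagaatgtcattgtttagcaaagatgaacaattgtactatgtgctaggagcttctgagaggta
Myd88: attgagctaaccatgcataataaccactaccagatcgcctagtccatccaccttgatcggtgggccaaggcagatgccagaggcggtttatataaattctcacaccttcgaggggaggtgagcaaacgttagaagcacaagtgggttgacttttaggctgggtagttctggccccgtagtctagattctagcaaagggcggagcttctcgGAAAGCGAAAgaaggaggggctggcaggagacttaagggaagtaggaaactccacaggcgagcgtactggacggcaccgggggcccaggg
The motifs, searched on both strands, were the repeat GAAA, any pair of bases, GAAA for interferon regulatory factors, GAGGAA for the core of PU.1 sites and the NF-kB consensus. Tlr2 held 2 separate stretches that matched NF-kB, with 5 matches in all because the motif is nearly symmetric and neighbouring matches overlap. The Tlr3 window held 1 NF-kB match, starting at position -211 from the transcript start, that of Tlr13 held 1 PU.1 core at -83, and that of Myd88 held 1 interferon motif at -40. Over all 32851 such mouse windows, 8.46% held an NF-kB match, 28.3% a PU.1 core and 3.44% an interferon motif. The whole Tlr3 window lies inside the RefSeq gene, which extends to 45411075 on chromosome 8. The start used for Tlr2 also lies inside its gene. These windows therefore belong to starts other than the outermost ones of Tlr3 and Tlr2. A match describes the letters and shows no binding.

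All receptor transcripts were scarce. Values are in FPKM, a read density that is divided by transcript length and by library size, so levels can be compared between genes. In mock brain Myd88 was highest at 3.43 ± 0.56 FPKM and Tlr3 next at 2.78 ± 0.07 FPKM (SD, n = 3 here and throughout), and the ranges of these 2 genes overlapped. Tlr3 stood clear of the next gene, Tlr2, at 0.870 ± 0.276 FPKM. Tlr13 followed at 0.534 ± 0.104 FPKM, Tlr7 at 0.511 ± 0.027 FPKM, Tlr9 at 0.501 ± 0.312 FPKM and Tlr4 at 0.332 ± 0.036 FPKM, and the ranges of neighbours from Tlr2 to Tlr4 overlapped. Below them Tlr1, Tlr5 and Tlr6 lay at 0.160 ± 0.065, 0.136 ± 0.018 and 0.0696 ± 0.0406 FPKM, with Tlr1 and Tlr5 overlapping. After irradiation the order was the same except for Tlr7, which came next after Tlr3 with a range that overlapped that of Tlr2, and Myd88 was clear of Tlr3. The 10 genes lay between percentiles 13.8 (Tlr6) and 46.8 (Myd88) of the 19679 genes above 0 in at least 1 library. For a test, the 6 libraries had to average 0.5 FPKM or more, and 5 of the 10 genes reached it: Myd88, Tlr2, Tlr3, Tlr7 and Tlr13.

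**Figure D1:**
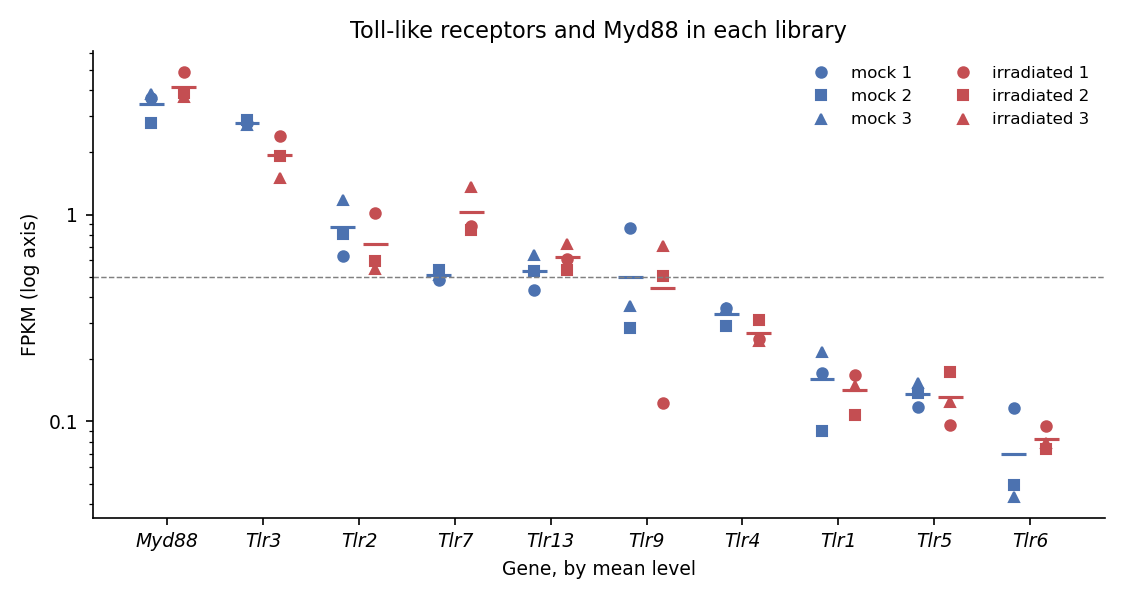
FPKM (log axis) of each gene in the 3 mock (blue) and 3 irradiated (red) libraries, with marker shape giving the replicate number, short lines the group means and the dashed line the minimum mean of 0.5 FPKM for a test. Tlr7 and Tlr3 have groups that do not overlap, while the other 8 genes overlap.

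None of the 5 tested genes passed the test between irradiated and mock brain. The test was limma on log2(FPKM + 0.5) over all 14585 genes that reached the minimum, with Benjamini-Hochberg adjustment and an adjusted p under 0.05 as a call. It called 508 genes higher (3.48%) and 618 lower (4.24%), 7.72% in all. Among the 5, 1 was higher and 1 was lower at an unadjusted p under 0.05, and 0 of 10 were called when the test was run without a minimum level (4.4% of all genes were called there). Fold changes on the log2(FPKM + 0.5) scale understate those of genes as low as these. In bulk tissue, fewer or more cells of a type cannot be told apart from less or more RNA per cell.

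Among the endosomal receptors Tlr7, a sensor of single-stranded RNA encoded on chromosome X from 167303380 to 167330574, had the widest difference. It was at 0.484, 0.538 and 0.510 FPKM in mock libraries, against 0.880, 0.839 and 1.35 FPKM after irradiation. Every irradiated library lay above every mock library, as did those of 13.7% of all tested genes, and irradiated 3 was the highest. The mean FPKM was 2.01-fold that of mock. On the log2(FPKM + 0.5) scale the change was 0.58 (SE 0.19, 95% interval 0.14 to 1.02), with a limma adjusted p = 0.11, so it was not called. Without irradiated 3 the change was 0.43.

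Tlr3, the receptor for long paired RNA strands (chromosome 8, 45395665 to 45411075), differed in the opposite direction. Its mock libraries were close together at 2.75, 2.86 and 2.72 FPKM, and its irradiated libraries at 2.39, 1.92 and 1.50 FPKM. All irradiated libraries lay below the mock range, as for 17.7% of all tested genes, and the spread was wider than in mock. The log2 change was -0.44 (SE 0.19, 95% interval -0.87 to -0.02), with a limma adjusted p = 0.18. It was -0.31 without irradiated 3 and -0.58 without irradiated 1. An antisense gene, Gm45542, overlaps the Tlr3 gene on the other strand, and whether reads were counted by strand is not given in the sources used here.

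Tlr7 over Tlr3, a ratio of FPKM chosen after their values were seen, was 0.176, 0.188 and 0.188 in mock libraries and 0.368, 0.437 and 0.903 in irradiated libraries. It carries no test, since its groups are separate by construction where one gene lies wholly above and the other wholly below the mock range. Over all 12 Tlr genes of the table the summed level was 5.79 to 6.32 FPKM in mock and 5.33 to 5.85 FPKM after irradiation. Tlr3 made up 45.9 ± 3.2% of that sum in mock and 34.5 ± 7.4% in irradiated brain, and Tlr7 8.43 ± 0.74% and 18.2 ± 4.9%.

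**Figure D2:**
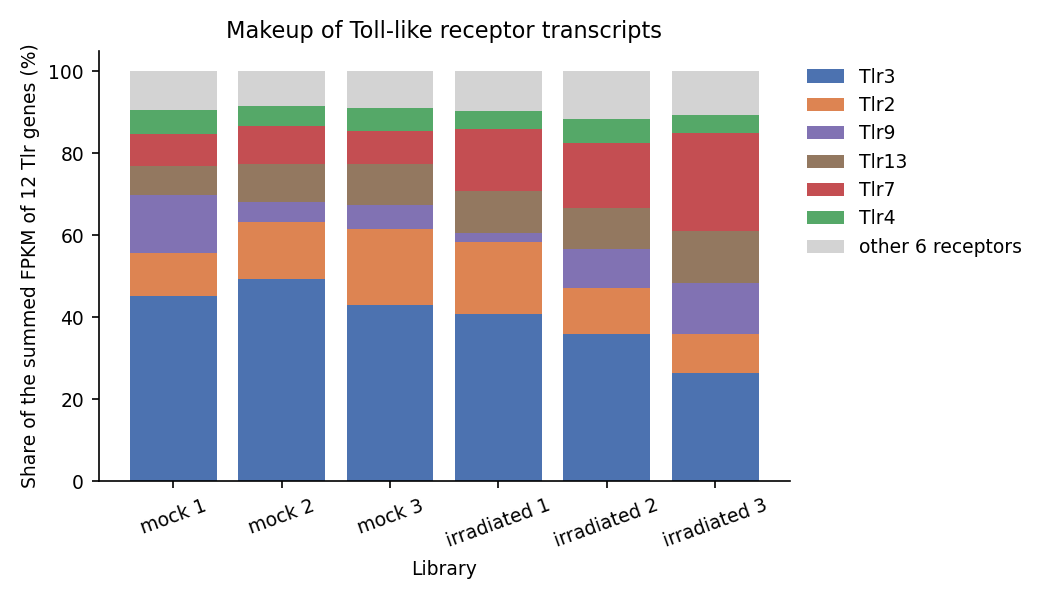
Share (%) of the summed FPKM of 12 Tlr genes taken by each receptor in each library. The Tlr7 share was 7.95 to 9.29% in mock and 15.0 to 23.9% in irradiated libraries, and the Tlr3 share was 43.0 to 49.4% and 26.4 to 40.9%.

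Tlr13, which binds bacterial ribosomal RNA (chromosome X, 106143275 to 106160493), measured 0.430, 0.533 and 0.637 FPKM in mock, against 0.607, 0.540 and 0.719 FPKM after irradiation. The groups overlapped, and the log2 change was 0.12 (95% interval -0.29 to 0.53, limma adjusted p = 0.70). Tlr9, the receptor for unmethylated CpG DNA (chromosome 9, 106222598 to 106226876), had the largest SD relative to its mean of the 10 genes, 62.3% in mock and 66.3% in irradiated libraries. It was at 0.859, 0.283 and 0.362 FPKM in mock, against 0.123, 0.505 and 0.701 FPKM after irradiation. Its mean of 0.472 FPKM was below the minimum for a test, and without the minimum its log2 change was -0.10 (95% interval -0.79 to 0.60).

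Among the surface receptors Tlr2 (chromosome 3, 83836272 to 83841824) measured 0.633, 0.804 and 1.17 FPKM in mock, against 1.02, 0.593 and 0.547 FPKM after irradiation. The groups overlapped, with mock 3 highest and irradiated 3 lowest. The log2 change was -0.17 (95% interval -0.69 to 0.35, limma adjusted p = 0.67), and it ranged from -0.34 without irradiated 1 to -0.02 without mock 3. Irradiated 1 also had the most RNA of neutrophil and monocyte genes: S100a8, a neutrophil protein that can act on Tlr4, was at 17.4 FPKM there, at 0.490 and 0.254 FPKM in the other irradiated libraries and at 3.23 to 3.97 FPKM in mock. The 14 genes of that list found in the table summed to 42.2 FPKM in irradiated 1, to 5.20 and 3.61 FPKM in irradiated 2 and 3, and to 9.17 to 12.2 FPKM in mock, and none was at 0 in all libraries. Their part in the Tlr2 values was not tested.

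Tlr4 (chromosome 4, 66827551 to 66846581) measured 0.352, 0.291 and 0.353 FPKM in mock, against 0.250, 0.308 and 0.244 FPKM after irradiation. All irradiated libraries were below the mock mean, but irradiated 2 lay inside the mock range. Its log2 change without a minimum level was -0.12 (95% interval -0.31 to 0.08). Tlr5, Tlr1 and Tlr6 stayed between 0.0434 and 0.218 FPKM in every library, and their groups overlapped. Without the minimum, the log2 changes were -0.01 for Tlr5, -0.04 for Tlr1 and 0.03 for Tlr6, none called. Tlr1 (chromosome 5, 64924680 to 64933600) and Tlr6 (chromosome 5, 64953092 to 64970942) are neighbouring copies. Of all stretches of 75 bases, the read length, 11.5% in the longest Tlr1 transcript and 9.44% in that of Tlr6 were identical in the other gene, so their split is uncertain. The other 8 genes shared no such stretch with a transcript of another gene read in the same direction. Stretches shared with a gene on the opposite strand were not searched. Of the receptors outside the set, Tlr8 was at 0.0164 to 0.0563 FPKM in mock and 0.0367 to 0.1 FPKM after irradiation, Tlr11 was listed at 0 in 4 of the 6 libraries, and Tlr12 was at 0.123 to 0.152 FPKM in mock and 0.158 to 0.178 FPKM after irradiation.

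Myd88 (chromosome 9, 119335934 to 119340018) measured 3.66, 2.78 and 3.83 FPKM in mock, against 4.88, 3.87 and 3.70 FPKM after irradiation. The groups overlapped, and the log2 change was 0.25 (SE 0.19, 95% interval -0.18 to 0.67, limma adjusted p = 0.44). It was 0.12 without mock 2, the lowest library, and 0.01 with mock 2 and irradiated 1 left out together. The Myd88 gene overlaps Acaa1a, an enzyme gene on the other strand. Acaa1a was at 39.3 ± 9.0 FPKM in mock and 48.4 ± 5.8 FPKM after irradiation. Reads from a stretch that both genes cover can be told apart only by strand. Whether the exons of the genes overlap was not examined. Myd88 also overlaps Slc22a14, which was at or below 0.0272 FPKM.

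**Figure D3:**
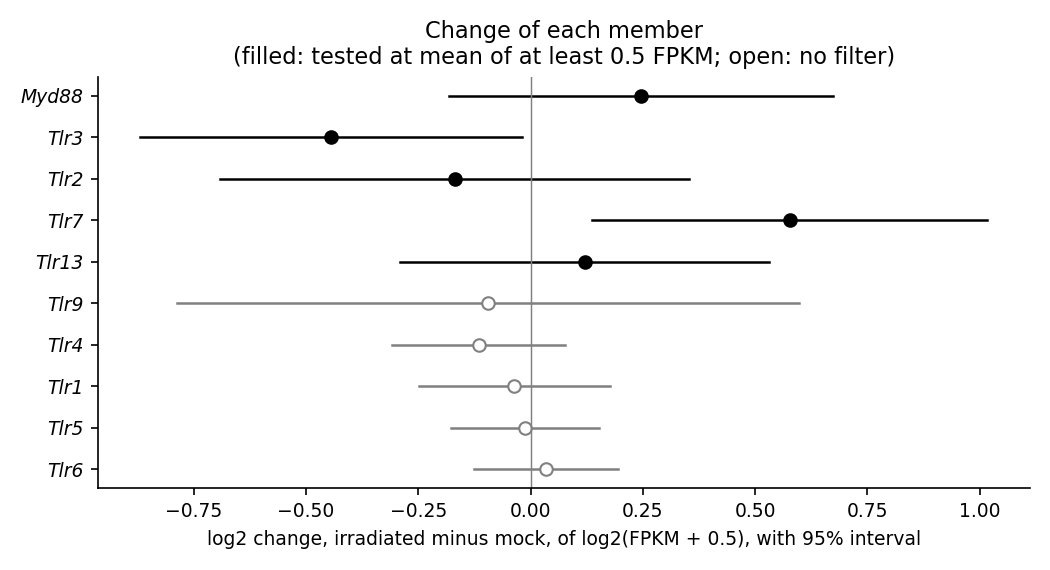
Log2 change (irradiated minus mock, log2(FPKM + 0.5)) with 95% interval for each gene, filled where tested at a mean of at least 0.5 FPKM and open where fitted without that minimum. The Tlr7 interval of 0.14 to 1.02 and the Tlr3 interval of -0.87 to -0.02 leave out 0, and the other 8 include it.

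Markers of microglia and of brain regions differed between the same libraries. The 24 homeostatic microglia genes, C1qb and C1qc of complement the most abundant, summed to 378 to 443 FPKM in mock and to 464 to 738 FPKM after irradiation. Of them 4 rose and 0 fell (3.48% and 4.24% of all genes), with a median log2 change of 0.34, and none was at 0. The count was 0 without mock 1, mock 2 or irradiated 3 or with the telencephalon covariate, and 8 without irradiated 2. When each library was centred on this list, the Tlr7 change was 0.18 (limma adjusted p = 0.61) and the Tlr3 change was -0.84 (adjusted p = 0.044). The centring moved the median of all genes from -0.02 to -0.42 and called 14.5% of all genes lower. Relative to that median the Tlr7 change was 0.59 and the Tlr3 change was -0.43 with and without the centring. These values cannot differ, since the centring shifts every gene of a library alike. Of 10 border macrophage genes 0 of the 8 tested passed, although their sum was 8.25 to 10.03 FPKM in mock and 12.5 to 25.9 FPKM after irradiation. Of 12 astrocyte genes 0 rose and 2 fell (4.24% of all genes were lower), with a median log2 change of -0.20 and sums of 2029 to 2307 FPKM in mock and 1492 to 1798 FPKM after irradiation. The count was 0 without mock 1 or irradiated 3 and 1 without mock 2, mock 3 or irradiated 2. Of 12 oligodendrocyte genes 0 rose and 3 fell, with a median log2 change of -0.76 and sums of 5530 to 6648 FPKM in mock and 2589 to 4554 FPKM after irradiation. That count was 0 without mock 1 or mock 2, 1 without mock 3 or irradiated 3 and 8 without irradiated 1. With the telencephalon covariate both counts were 0.

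The 20 cerebellum genes had 18 lower, against 4.24% of all tested genes, and a median log2 change of -2.33. Their sum was 2415 to 2899 FPKM in mock and 671 to 1067 FPKM after irradiation. The 8 telencephalon genes had 4 higher (2 without irradiated 2 and 1 without irradiated 3), against 3.48% of all tested genes. Their sum was 52.6 to 302 FPKM in mock and 687 to 1473 FPKM after irradiation. None of these region genes was at 0 in all libraries. The cerebellum sums do not overlap between the groups, so regional makeup and irradiation cannot be told apart for any gene here. With the telencephalon list as a covariate the Tlr7 change was 0.49 (SE 0.31, limma adjusted p = 0.65) and the Tlr3 change was -0.27 (SE 0.29, adjusted p = 0.78). Without it the SE was 0.19 for both. With this covariate 8 of the 20 cerebellum genes were still called lower, against 61 of all 14585 tested genes. It therefore does not take out regional makeup as a whole.

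Profiles over the 6 libraries were compared between each tested gene and the other tested genes of the pathway and marker lists, 191 candidates, by root mean square distance on the log2 scale after each gene's mean was taken off. The nearest gene to Tlr3 was Slc7a10, an astrocyte amino acid transporter, at 0.084, followed by Aldoc at 0.13 and Il10ra at 0.14. The nearest to Tlr7 were Syp, a synaptic vesicle protein, at 0.11, Cnpy3, a chaperone of Toll-like receptors, at 0.15 and Map2 at 0.17. For Tlr13 they were Irf1 at 0.055, Tbk1 and Cd86, for Myd88 Irf5 at 0.081, Cx3cr1 and Aldh1l1, and for Tlr2 Gjb6 at 0.14 and Irf3. With 6 libraries these distances describe the libraries only.

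In the wider pathway the called genes were a transcription factor, an inhibitor and 3 induced genes. Of 91 other genes in 6 lists, 63 were tested, of which 4 rose and 1 fell. This is 7.94% of the list, close to the 7.72% of all tested genes. Their median log2 change was 0.06, and that of all tested genes was -0.02. Without the minimum level, 90 were tested and again 4 were higher and 1 was lower, with Cxcl9 called and Ccl5 not. With the telencephalon covariate 0 of the 63 were called, and of all genes 16 were higher and 61 lower.

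**Figure D4:**
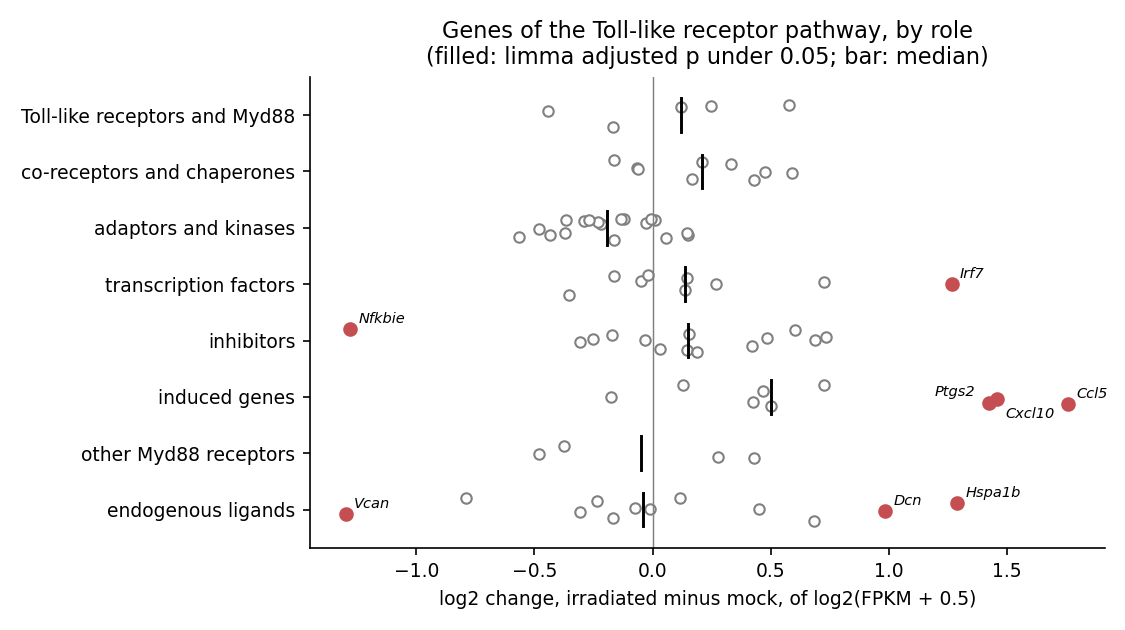
Log2 change (irradiated minus mock, log2(FPKM + 0.5)) of each tested gene by its role, filled where the limma adjusted p was under 0.05, with a bar at each median. The 5 tested Toll-like receptor and Myd88 genes have no filled point, the induced genes have 3, and the median of adaptors and kinases is at -0.19.

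Co-receptors and chaperones had 0 of 9 tested genes called, with a median log2 change of 0.21. Cnpy3 was at 34.3, 32.8 and 40.7 FPKM in mock, against 57.6, 44.3 and 61.9 FPKM after irradiation (log2 change 0.59, limma adjusted p = 0.084). Its irradiated libraries all lay above the mock range, as for 13.7% of all tested genes. Unc93b1, which carries nucleic acid receptors to endosomes, was at 9.24, 6.13 and 9.18 FPKM in mock, against 9.85, 10.95 and 13.7 FPKM after irradiation (log2 change 0.48, adjusted p = 0.20). Adaptors and kinases had 0 of 18 tested genes called, with 14 of them below 0 and a median log2 change of -0.19. Tirap, which bridges Tlr2 and Tlr4 to Myd88, was at 1.06, 1.13 and 0.655 FPKM in mock, against 0.478, 0.519 and 0.406 FPKM after irradiation. All its irradiated libraries lay below the mock range, as for 17.7% of all tested genes. Its log2 change of -0.57 was not called (limma adjusted p = 0.12). Chuk, a kinase of the NF-kB pathway, had a log2 change of -0.48 (adjusted p = 0.14).

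Against 3.48% higher and 4.24% lower among all tested genes, transcription factors had 1 of 9 tested genes higher and 0 lower. It was Irf7, which acts below Tlr7 and Tlr9 and is itself induced by interferon, at 2.33, 2.58 and 1.85 FPKM in mock, against 5.61, 6.45 and 6.18 FPKM after irradiation (limma adjusted p = 0.0041). Inhibitors had 0 of 14 higher and 1 lower. Nfkbie, which encodes an inhibitor that holds NF-kB in the cytoplasm, fell from 3.16, 2.81 and 2.70 FPKM in mock to 0.896, 0.985 and 0.805 FPKM after irradiation. Each of its irradiated libraries was below the mock range, as for 17.7% of all tested genes. The log2 change was -1.28 (SE 0.17, limma adjusted p = 0.0033). Nfkbie was called without any 1 library (largest adjusted p = 0.025). With the telencephalon covariate its log2 change was again -1.28, with a wider SE of 0.26, and it was not called (adjusted p = 0.12).

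Of 27 genes that Toll-like receptors are known to induce, 9 were tested. Of these 3 rose and 0 fell, against 3.48% and 4.24% of all tested genes, with a median log2 change of 0.50. Cxcl10, a chemokine that interferon also induces, was at 0.505, 0.423 and 0.438 FPKM in mock, against 2.92, 2.21 and 1.44 FPKM after irradiation. All its irradiated libraries lay above the mock range, as for 13.7% of all tested genes. The log2 change was 1.46 (SE 0.23, limma adjusted p = 0.0083), and Cxcl10 was called without any 1 library. With the telencephalon covariate its log2 change was 1.60 (SE 0.37), and it was not called (adjusted p = 0.15). Ptgs2, the inducible cyclooxygenase that forebrain neurons also express, was at 0.829, 0.198 and 0.685 FPKM in mock, against 1.73, 2.61 and 2.57 FPKM after irradiation. Its log2 change of 1.42 (SE 0.27, limma adjusted p = 0.020) was not called without irradiated 2 (adjusted p = 0.051) or irradiated 3 (0.078). With the telencephalon covariate the Ptgs2 change was 0.69 (SE 0.30, adjusted p = 0.49). The lowest Ptgs2 value was in mock 2, which also had the lowest telencephalon sum. Whether regional makeup had a part in the Ptgs2 values was not tested. Ccl5, a chemokine of T cells and macrophages, was at 0.195, 0.136 and 1.04 FPKM in mock, against 4.39, 2.31 and 1.42 FPKM after irradiation. Its log2 change of 1.76 (SE 0.42, limma adjusted p = 0.040) was lost without any 1 of mock 1, mock 2, irradiated 1 or irradiated 2 (largest adjusted p = 0.13). The lymphocyte list summed to 1.61 to 2.92 FPKM in mock and to 5.12 to 6.92 FPKM after irradiation, and none of its 17 genes was at 0 in all libraries. Lck and Zap70, a pair of T cell kinases, made most of the difference, at 1.53, 1.05 and 1.82 FPKM together in mock, against 5.09, 4.18 and 4.77 FPKM after irradiation. The other 15 genes summed to 1.39, 0.556 and 1.03 FPKM in mock, against 1.83, 0.943 and 0.866 FPKM after irradiation, which overlapped. Whether lymphocytes had a part in the Ccl5 values was not tested. Cxcl9, named after its values were seen, was called only without the minimum level, at 0.0132 to 0.0205 FPKM in mock and 0.109 to 0.151 FPKM after irradiation. Ifnb1, interferon beta, was listed at 0 in all 6 libraries.

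The other receptors and cytokines of the Myd88 route had 0 of 4 tested genes called. The log2 change of Il33 was -0.48 (limma adjusted p = 0.21) and that of Il1rap was -0.38 (adjusted p = 0.30). Of 12 genes for proteins described as endogenous ligands, all tested, 2 rose and 1 fell, against 3.48% and 4.24% of all tested genes. Their median log2 change was -0.04. Vcan, versican, which oligodendrocyte precursors also express, fell from 3.25, 3.45 and 3.57 FPKM to 0.768, 0.954 and 1.70 FPKM (log2 change -1.30, limma adjusted p = 0.014). Dcn, decorin, had a log2 change of 0.98 (adjusted p = 0.032) and Hspa1b, a heat shock protein with a nearly identical copy in Hspa1a, one of 1.29 (adjusted p = 0.048). Vcan was called without any 1 library (largest adjusted p = 0.049), while Dcn and Hspa1b were each called in only 1 of the 6 fits that left out a library. With the telencephalon covariate none of the 12 was called. There the log2 change of Vcan was -1.50 (SE 0.36, against 0.23 without the covariate, limma adjusted p = 0.17), that of Dcn 1.06 and that of Hspa1b 0.62.

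**Figure D5:**
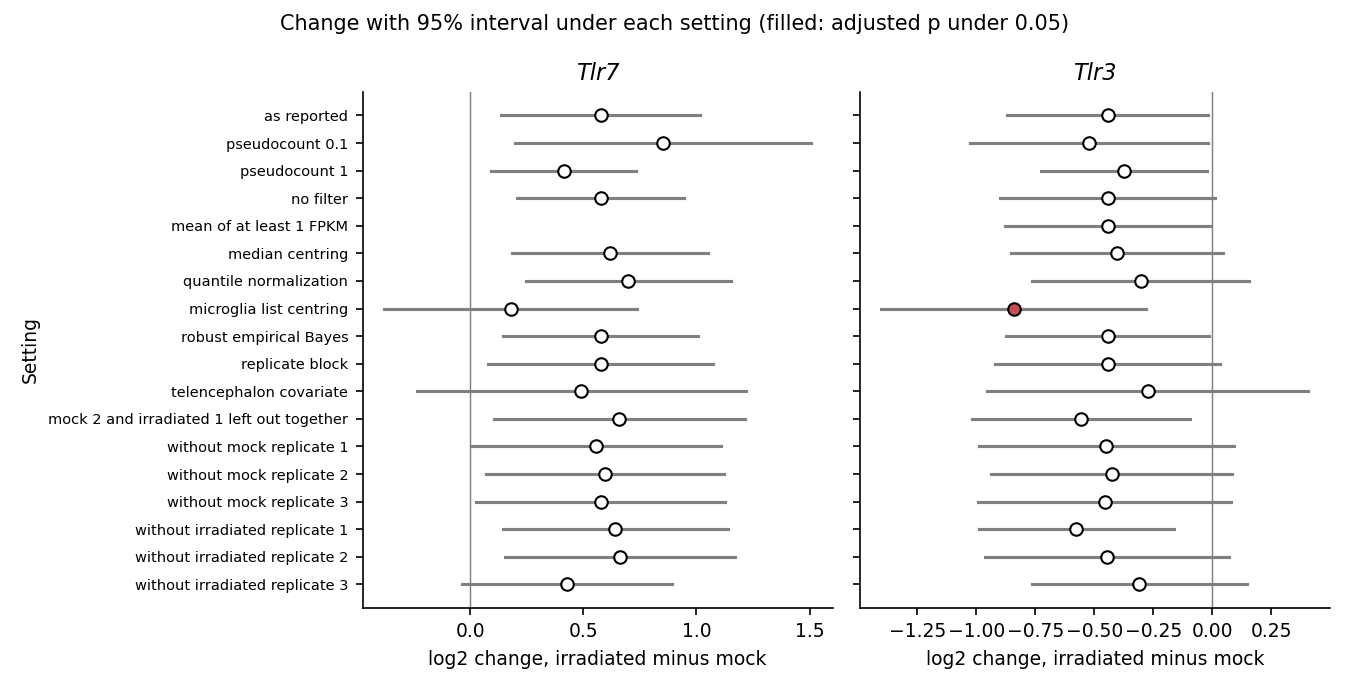
Log2 change (irradiated minus mock) with 95% interval of Tlr7 and Tlr3 under each setting, filled where the limma adjusted p was under 0.05. Tlr7 lay between 0.18 and 0.85 and was never filled, and Tlr3 lay between -0.84 and -0.27 and was filled only with centring on the microglia list.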

How the data were processed

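Total RNA of brain was depleted of ribosomal RNA and made into stranded libraries, which were sequenced with single-end reads of 75 bases to about 30 to 40 M reads, per the labels' protocols. The authors deposited 1 FPKM value per gene and library, per the file header. The submitters' processing notes name TopHat, Cufflinks, Cuffdiff and mm10. For versions, roles, annotation and strand setting, nothing was given in these sources. FPKM sums were 472450 to 625782 per library. The depth behind each value is unknown, so no counting interval is given.

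After 1 leftover header line was removed, limma 3.58.1 in R 4.3.3 compared the groups on log2(FPKM + 0.5) with no covariate, a trend of variance with level and two-sided p-values, among genes that averaged 0.5 FPKM or more. The fit was tested on simulated data. The genes, lists and tests were chosen with earlier results of these data known. Genes named besides the 10 were the called members of each list, or otherwise the pair with the smallest p, and abundant markers, and exceptions are marked. A withheld gene among the nearest profiles is not reported here. Nothing in the labels says that equal replicate numbers share a litter or day. The p-values measure the spread between the libraries of these mice, which also holds differences in regional markers. Positions are those of RefSeq on GRCm38.p6, which mm10 represents, and shared stretches come from GENCODE M21 transcripts. Alternatives were other pseudocounts, filters and scalings, robust fitting, a replicate block, a regional covariate and leaving out libraries.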

Additional observations from a re-analysis of the deposited data

How the results depend on the processing

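Over the 17 alternatives, which tested 2 to 10 of the 10 genes each, 0 were called higher in any, and 1 (Tlr3) was called lower only with centring on the microglia list. Tlr7 (16 alternatives, adjusted p 0.067 to 0.65) and Tlr3 (17, adjusted p 0.044 to 0.78) kept their direction, as did Tlr2 (16). Tlr2, Tlr7 and Tlr13 have no value at a mean of at least 1 FPKM. With the microglia centring Tlr13 was at -0.28 and Myd88 at -0.15, against 0.12 and 0.25 as reported. Under the same centring 4 pathway genes were lower, and 243 of all genes were higher and 2114 lower. With the telencephalon covariate 0 pathway genes were higher and 0 lower, and 16 and 61 of all genes. With the replicate block 2 pathway genes were higher and 394 of all genes lower. The labels do not say whether the number pairs the mice. Same-numbered libraries correlated at -0.33 to 0.20 in their deviations from the group means, and 1 of 6 libraries correlated best with its own number. With 3 libraries per group these values cannot settle whether mice were paired. Leaving out 1 library gave 2 to 4 pathway genes higher and 1 lower in each case, with 2 without irradiated 2, and 0 of the 5 or 6 tested Toll-like receptor and Myd88 genes in either direction. For all genes it gave 147 to 673 higher and 254 to 695 lower, with both counts moved by over 1.5 times without mock 1, 2 or 3 or irradiated 3. A comparison of 3 with 3 mice and an unknown depth limit what can be seen in genes under 1 FPKM. The causes of these shifts were not tested.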
